A study of Mus musculus with 4 samples.

Results

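The cells described here were monocytes of mouse bone marrow that carried fibronectin (Fn1) RNA together with RNA of the lectin receptors Clec4a1 and Clec4a3 and of the secreted WAP domain protein Wfdc17. They were chosen by measured values. A cell was a member if it held at least 3 Fn1 UMIs, a sum of at least 2 Clec4a1 and Clec4a3 UMIs and at least 3 Wfdc17 UMIs, with S100a8 and S100a9 under 5% of its UMIs (a unique molecular identifier, UMI, marks 1 captured RNA molecule). The limit on S100a8 and S100a9, calprotectin genes that are abundant in neutrophils, kept neutrophil RNA low. Of 4992 cells of the Lin-/CD11b+ sort, 162 were members, and these were 162 of 8969 cells in the whole series. They are called Clec4a-high Fn1 monocytes below. They were set beside cells with at least 3 Fn1 UMIs, at least 3 UMIs of the galectin Lgals3 and at most 1 Clec4a1 or Clec4a3 UMI, called low Clec4a cells, of which there were 309.

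The data analysed here were 4 single-cell RNA libraries of the study, 1 for each of 2 genotypes and 2 sorts, and the members came from the pair of libraries labelled Lin_neg_CD11b, a sort of lineage-negative progenitors and CD11b+ myeloid cells. The Tet2 KO mice carried Tet2 fl/fl alleles and the Mx1-Cre transgene, and the WT mice were Mx1-Cre-negative littermates of the same Tet2 fl/fl background. Mice of both genotypes had received pI:pC, given by intraperitoneal injection as 4 doses of 12.5 ug/g. It is a synthetic double-stranded RNA that induces interferon and through it Mx1-Cre, so the controls carried the floxed alleles and the treatment too. The Mx1 promoter acts in many hematopoietic and other cells, so the deletion was not limited to monocytes. There was 1 library per genotype and sort. No test was therefore made between genotypes or sets of cells, a difference between the libraries cannot be told apart from one between mice or preparations, and the intervals below, at 95%, reflect counting error alone.

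Classical monocytes leave the bone marrow through the chemokine receptor Ccr2, carry Ly6c2 and Fn1, and arise from progenitors that make granule proteases such as elastase. As they mature they stop dividing and lose granule RNA. The Clec4a genes encode C-type lectin receptors of myeloid cells, some of which inhibit signalling through a motif in their cytoplasmic tail. Apoe carries lipids and is made by macrophages and by some monocytes. Saa3 is an acute phase protein that macrophages make in inflammation.

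Clec4a1 (chr6:122921848-122934619, + strand) and Clec4a3 (chr6:122952515-122969875, + strand) are neighbours in the mouse build mm10, with 17895 bases between them, so they were counted as a pair. The bases just before the transcription start of the 5 marker genes given for these cells are shown because these genes defined or followed the selection. They are 250 bases up to the start in RefSeq (GRCm38.p6), less any that lie in the gene as GENCODE gives it, 65 for Wfdc17 and 24 for Saa3. Capitals mark matches, on either strand, to the letters TATAAA (the TATA box), GAGGAA (the core of an ETS family motif), TTGCNNAA (C/EBP family) or the IRF family repeat, a pair of GAAA words with a short gap.

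Clec4a1, chr6:122921598-122921847, + strand: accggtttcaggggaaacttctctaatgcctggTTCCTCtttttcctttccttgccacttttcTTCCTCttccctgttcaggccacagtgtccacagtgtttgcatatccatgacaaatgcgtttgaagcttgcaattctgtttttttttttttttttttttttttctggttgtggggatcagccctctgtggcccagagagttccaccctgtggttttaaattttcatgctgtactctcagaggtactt

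Clec4a3, chr6:122952265-122952514, + strand: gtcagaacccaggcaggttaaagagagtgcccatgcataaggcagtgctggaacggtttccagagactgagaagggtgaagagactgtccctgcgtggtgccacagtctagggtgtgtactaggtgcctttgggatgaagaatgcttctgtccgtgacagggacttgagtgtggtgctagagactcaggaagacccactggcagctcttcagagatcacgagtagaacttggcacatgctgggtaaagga

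Wfdc17, chr11:83703806-83703990, + strand: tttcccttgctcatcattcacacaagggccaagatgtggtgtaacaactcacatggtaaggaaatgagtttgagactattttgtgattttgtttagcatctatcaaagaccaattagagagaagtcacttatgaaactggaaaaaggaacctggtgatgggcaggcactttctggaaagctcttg

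Apoe, chr7:19699189-19699438, - strand: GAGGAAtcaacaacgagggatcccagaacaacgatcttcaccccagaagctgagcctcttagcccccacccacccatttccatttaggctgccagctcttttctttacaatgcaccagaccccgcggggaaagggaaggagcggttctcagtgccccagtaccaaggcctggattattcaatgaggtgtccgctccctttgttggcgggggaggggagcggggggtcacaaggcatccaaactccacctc

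Saa3, chr7:46715701-46715926, - strand: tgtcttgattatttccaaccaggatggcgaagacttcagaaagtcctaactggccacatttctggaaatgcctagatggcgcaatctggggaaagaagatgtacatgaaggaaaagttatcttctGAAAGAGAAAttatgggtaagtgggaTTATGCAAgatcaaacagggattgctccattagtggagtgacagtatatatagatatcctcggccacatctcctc

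The Clec4a1 window held 2 GAGGAA matches, the Apoe window 1, and the Saa3 window 1 TTGCNNAA match and 1 IRF family repeat. The Wfdc17 window held 1 GAGGAA match, in the bases not shown, and these letters were not in the Clec4a3 window. Of 32851 RefSeq windows of the same length, 23.3% held GAGGAA, 9.56% TTGCNNAA, 2.98% the IRF family repeat and 12.4% TATAAA. A match is a description of the letters and not a bound site.

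In the WT library 27 of 1924 cells were Clec4a-high Fn1 monocytes, 1.40% (0.927% to 2.04%, exact binomial). In the Tet2 KO library they were 135 of 3068 cells, 4.40% (3.70% to 5.19%). Members were therefore a larger share of the Tet2 KO library, by more than counting error. Among cells with at least 3 Fn1 UMIs and low S100a8 and S100a9, they were 27 of 139 in WT (19.4%, 13.2% to 27.0%) and 135 of 337 in Tet2 KO (40.1%, 34.8% to 45.5%).

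Part of that gap lay in Wfdc17, a gene that the rule used. With any Wfdc17 level, cells with a Clec4a sum of at least 2 were 35 of the 139 WT cells (25.2%, 18.2% to 33.2%) and 139 of the 337 Tet2 KO cells (41.2%, 35.9% to 46.7%). Wfdc17 reached 3 UMIs in 27 of those 35 WT cells (77.1%) and in 135 of those 139 Tet2 KO cells (97.1%). With any Clec4a level, 47.5% of the WT and 80.7% of the Tet2 KO Fn1 cells reached it. Other cells differed in Wfdc17 too, here as cells with at least 1 UMI. With no Fn1 these were 22.5% in WT and 35.8% in Tet2 KO, and 14.3% and 23.3% of those with at least 20 Mpo UMIs. In plasma cells they were 5.66% and 9.82%. The part of this background in the gap was not tested. No cell of the GMP sort (granulocyte-monocyte progenitors) met the rule, among 1258 in WT and 2719 in Tet2 KO. The exact upper limits of these shares were 0.293% and 0.136%.

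**Figure D1:**
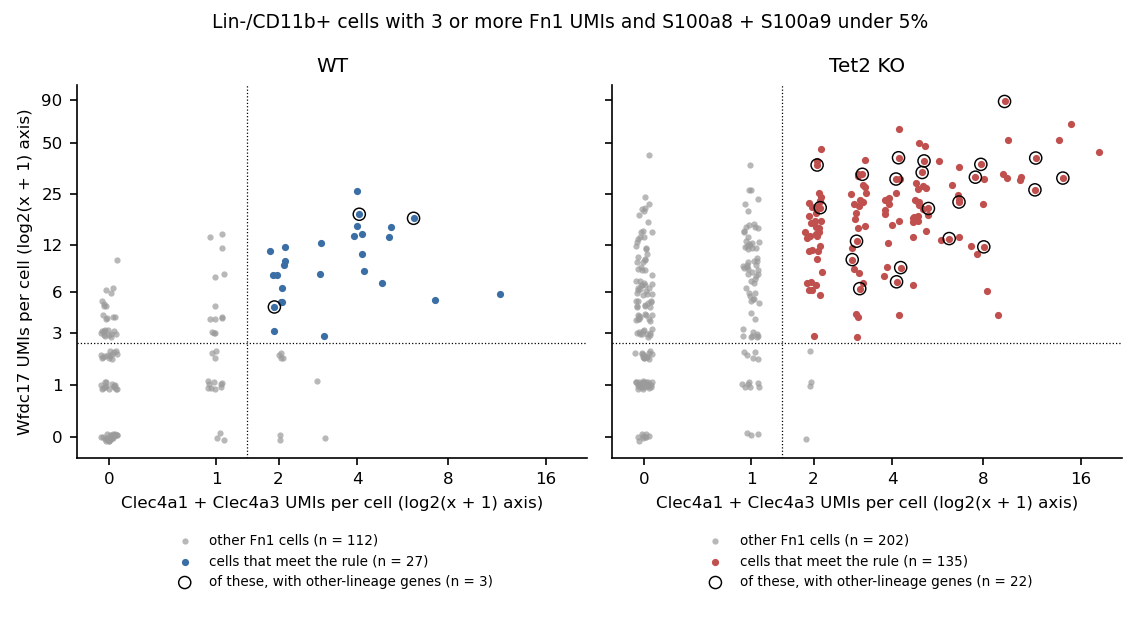
Each point is 1 cell with at least 3 Fn1 UMIs and low S100a8 and S100a9, by its Clec4a1 + Clec4a3 UMIs (x axis) and Wfdc17 UMIs (y axis), both on log2(x + 1) axes with a small random shift so that points do not hide each other; dotted lines mark the thresholds. The lower right corner is nearly empty, with 8 WT and 4 Tet2 KO cells, and black rings mark the 3 and 22 members that also carried genes of another lineage.

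Many cells lay near the thresholds. The Clec4a sum was exactly 2 in 11 of the 27 WT and 37 of the 135 Tet2 KO members, with a median of 3 UMIs (2 to 11) in WT and 4 (2 to 19) in Tet2 KO. Just outside, 13 WT and 60 Tet2 KO cells had a sum of 1 with the rest of the rule met. For Fn1, 4 WT and 13 Tet2 KO members held exactly 3 UMIs, and 5 and 21 cells with 2 UMIs met the rest. Wfdc17 had a median of 9 UMIs (3 to 26) in WT members and 20 (3 to 88) in Tet2 KO members, and only 5 and 3 cells with 1 or 2 Wfdc17 UMIs met the rest. S100a8 and S100a9 reached 5% in 4 WT and 26 Tet2 KO cells that met every other threshold. Clec4a3 was seen in 85.2% of WT and 91.9% of Tet2 KO members and Clec4a1 in 81.5% and 71.9%, so most cells carried Clec4a3, the more abundant of the pair in UMIs. Since the levels are those of the rule, these values describe the selection.

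Members were shallower than the other cells, with a median of 6641 UMIs in WT and 8178 in Tet2 KO, against 9070 and 9459 in low Clec4a cells. The summed UMIs were 241474 in WT and 1305769 in Tet2 KO members, so WT values are the less precise. In these deposited counts 2 Tet2 KO members and no WT member had 5% or more mitochondrial UMIs. The WT and Tet2 KO libraries shared 7 cell barcodes, 1 of them on a member. The label was checked against markers. Of 12 markers of classical monocytes all were detected in members of both libraries, with summed levels of 11728 CPM (UMIs of a gene per 1000000 UMIs of the set) in WT and 13412 in Tet2 KO. Summed over the 12, the lowest member had 37.8 UMIs per 10000 in WT and 33.8 in Tet2 KO. Single markers were missing from some members, Chil3 being seen in 22 of 27 and 121 of 135. The lowest low Clec4a cells had sums of 53.1 and 37.6, so those cells met this check too. Ly6c2 was seen in every member, and Ccr2 in 92.6% of WT and 100% of Tet2 KO members. Markers of tissue macrophages were scarce: of 14 measured, 10 in WT and 4 in Tet2 KO had no UMI, Mertk, Cd5l and Timd4 among them in both. Their summed level, 91.1 CPM in WT and 165 in Tet2 KO, was above that of low Clec4a cells, 34.2 and 49.6 CPM (log2 ratios 1.41, 0.57 to 2.22, and 1.74, 1.39 to 2.09, exact conditional binomial). All UMIs of the complement genes C1qa, C1qb and C1qc in Tet2 KO members lay in at most 3 cells each.

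Some members carried RNA of another lineage. Immunoglobulin genes took 5% or more of the UMIs in 3 of 27 WT and 5 of 135 Tet2 KO members. Those 3 WT cells were deep, with a median of 18473 UMIs, and held 29.9% of all WT member UMIs. At least 5 UMIs of T-cell receptor complex genes were found in 0 WT and 12 Tet2 KO members, and at least 50 UMIs of neutrophil genes such as Camp and Ngp in 0 and 7. In all, 3 WT and 22 Tet2 KO members met 1 of these limits, which were set after seeing the data, against 3 of 106 and 20 of 203 low Clec4a cells. Doublets were not called, and the part of doublets or free RNA in these cells was not tested. Ratios without these cells are given where they change a reading.

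Levels were summed over the cells of a set, as CPM, and compared as log2 ratios of CPM + 10, an offset that understates differences of low genes. Against low Clec4a cells of the same library, 46 of 5115 genes (0.899%) were at least 2-fold higher in members in both libraries and 69 (1.35%) at least 2-fold lower. Of the 46, 7 were genes of immunoglobulin chains or the plasma cell genes Jchain and Mzb1, and 36 stayed past 2-fold without the cells of other lineages, as did 40 of the 69. The median gene had a log2 ratio of -0.17 in WT and -0.05 in Tet2 KO.

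Apart from genes of the rule and immunoglobulin genes, Apoe had the largest mean ratio among genes with at least 100 UMIs in each library. It stood at 928 CPM (810 to 1057, exact Poisson) in WT members and 117 (97.3 to 140) in WT low Clec4a cells. In Tet2 KO the levels were 1731 (1660 to 1804) and 240 (219 to 262), so the log2 ratio was 2.88 in WT and 2.80 in Tet2 KO. Apoe is a marker given with the label and so was known to be high here. Its level varied widely among members, from 0 to 94.1 UMIs per 10000 in WT, with a median of 1.64, and from 0 to 130 in Tet2 KO, with a median of 8.86. It was detected in 59.3% of WT and 81.5% of Tet2 KO members (55.6% and 75.6% with each cell thinned to 5000 UMIs), and in 19.9% of WT and 33.4% of Tet2 KO cells with no Fn1, whose median depths were 11602 and 10686 UMIs. It was 20.5% and 46.4% in those with at least 20 Mpo UMIs, and 16.98% and 13.5% in plasma cells, so this background differed between the libraries.

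Chil3, a chitinase-like secreted protein, stood at 2282 CPM in WT and 2253 in Tet2 KO members, against 475 and 1096 in low Clec4a cells (log2 ratios 2.24 and 1.03). The chemokine Ccl6 stood at 1139 and 713 CPM against 278 and 276 (1.998 and 1.34). Gngt2, a G protein gamma subunit, had ratios of 1.94 and 1.53, and Fyb, an adaptor in adhesion signalling, 1.66 and 1.59. Both libraries thus gave the same direction for each of these genes, and the sizes for Chil3 differed, with low Clec4a cells of Tet2 KO at more than those of WT.

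The interferon-induced gene Ifi27l2a stood at 1147 CPM in WT and 2261 in Tet2 KO members, against 481 and 969 in low Clec4a cells, so the ratio was 1.24 and 1.21. Ifitm6, of the interferon-induced transmembrane family, had ratios of 1.16 and 1.17, and AB124611 of 1.01 and 1.39. Id2, an inhibitor of helix-loop-helix transcription factors, had 1.51 and 0.79. The lysosomal protease Ctss stood at 903 and 1227 CPM against 454 and 525 (0.98 and 1.21). Lyz2, the lysozyme of myeloid cells, was the most abundant of these, at 20329 and 22411 CPM against 11387 and 11774, with ratios of 0.84 and 0.93 that did not reach 2-fold. In single cells its lowest value in members was 36.7 UMIs per 10000 in WT and 47.0 in Tet2 KO, and the lowest in low Clec4a cells 2.86 and 0.853.

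Surface receptors were among the 46 genes, at lower levels. Itgam, the CD11b integrin used in the sort, stood at 112 CPM (73.7 to 163) and 148 (128 to 170) in members against 39.1 and 46.2 in low Clec4a cells. Adgre1, the F4/80 receptor and 1 of the macrophage markers, stood at 45.6 and 43.7 CPM against 11.7 and 15.1. Other members of the 46 with known myeloid roles were the scavenger receptor Msr1, the lipase Pla2g7, the chemokine Ccl2, the nucleic acid sensors Zbp1 and Ifi204 and the receptors Pilra, Klra2 and Cd300c2.

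Immunoglobulin genes were also among the named genes, and these followed a few cells. Igkc stood at 90925 CPM in WT members, with 99.6% of its UMIs in 3 cells, and at 7142 in Tet2 KO, with 92.7% in 3 cells. Jchain, Igha, Ighm and Iglc2 had 97.6% or more of their WT UMIs in 3 cells. Without the cells of other lineages the ratios of Igkc were -0.27 in WT and -0.02 in Tet2 KO, and no gene of the B and plasma cell list was past 2-fold in both libraries. In their place Pirb, an inhibitory receptor, Hacd4, Gda, Cybb, the NADPH oxidase subunit, and Cd68, a lysosomal glycoprotein, came among the named genes, with ratios from 0.87 to 1.68.

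**Figure D2:**
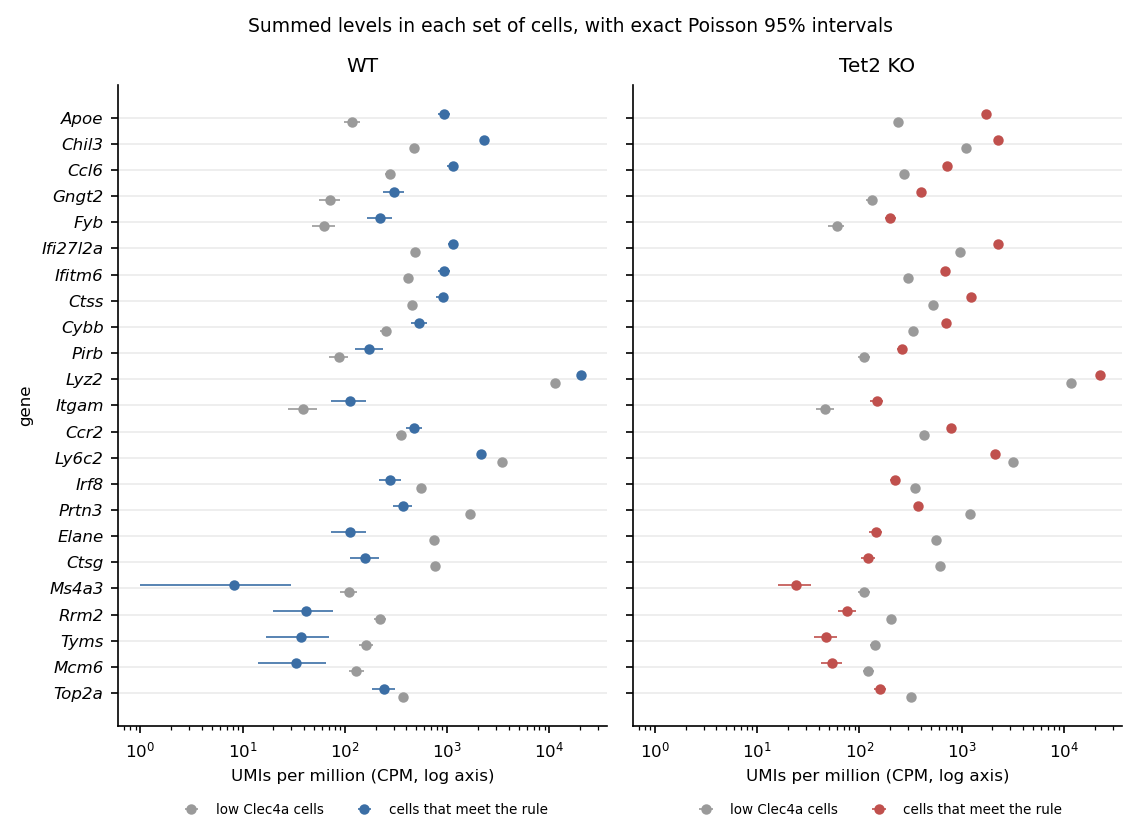
Levels (x axis, CPM on a log axis) of 23 genes (y axis) summed over Clec4a-high Fn1 monocytes (coloured, "cells that meet the rule") and low Clec4a cells (grey) of the WT (left) and Tet2 KO library (right), with exact Poisson 95% intervals. Genes from Apoe to Ccr2 lie to the right of grey in both panels, and those from Ly6c2 to Top2a to the left.

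Granule and progenitor genes were lower in members. Prtn3, the proteinase 3 gene of primary granules, stood at 369 CPM (296 to 454) in WT and 372 (340 to 407) in Tet2 KO members, against 1690 (1611 to 1772) and 1216 (1168 to 1264) in low Clec4a cells. Elane, elastase, stood at 112 and 144 CPM against 751 and 558, and Ctsg, cathepsin G, at 157 and 123 against 762 and 611. Ms4a3, a marker of granulocyte-monocyte progenitors, stood at 8.28 and 23.7 CPM against 109 and 111. Of 7 progenitor genes measured, 4 were at least 2-fold lower in both libraries, beside 1.35% of all genes, and their median log2 ratio was -2.17 in WT and -1.68 in Tet2 KO.

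Replication genes were lower too. Of 12 S phase genes, 9 were at least 2-fold lower in both libraries, with medians of -1.33 in WT and -1.18 in Tet2 KO (8 genes, -1.18 and -1.13, without the cells of other lineages). Rrm2 and Tyms, enzymes of nucleotide synthesis, stood at 41.4 and 37.3 CPM in WT members, against 220 and 161. In Tet2 KO members they stood at 75.8 and 46.7 CPM, against 205 and 142. Dut, which removes dUTP, had ratios of -2.77 and -1.31, and Csrp1, a LIM domain protein, -2.92 and -1.06. None of 12 G2/M genes passed 2-fold in both libraries, and all 12 had negative ratios in both, with medians of -0.40 and -0.70 (-0.04 and -0.53 without the cells of other lineages). Top2a or Mki67, made in dividing cells, was detected in 37.0% of WT and 41.5% of Tet2 KO members, against 80.2% and 77.3% of low Clec4a cells, which were deeper. With each cell thinned to 5000 UMIs, Top2a alone was detected in 25.9% and 22.2% of members and 59.4% and 55.2% of low Clec4a cells.

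Ly6c2, the surface antigen of classical monocytes, was lower in members by less than 2-fold, at 2153 and 2122 CPM against 3459 and 3177 (log2 ratios -0.68 and -0.58, or -0.34 and -0.43 without the cells of other lineages). Irf8, a transcription factor of monocyte commitment, stood at 277 and 224 CPM against 555 and 349. Ccr2 stood at 476 and 783 CPM against 353 and 428, and Csf1r, the receptor of the growth factor M-CSF, had ratios of 0.62 and 0.69. Camp and Ngp, neutrophil granule genes, were among the lowest, and this followed the limit on S100a8 and S100a9 that only the members had. With the same limit on low Clec4a cells their ratios in Tet2 KO were 2.98 and 2.61.

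In the remaining lists the counts stand beside 0.899% of all genes at least 2-fold higher in both libraries. Of 8 interferon-stimulated genes, 3 were at least 2-fold higher in both libraries (Ifi27l2a, Zbp1 and Ifi204), with medians of 0.50 and 0.84. Of 8 chemokines and cytokines, 2 were higher (Ccl6 and Ccl2), with medians of 0.90 and 1.01, and of 11 classical monocyte genes 1 (Chil3), with 0.24 and 0.37. No gene was past 2-fold in both libraries among 18 lysosomal genes (0.14 and 0.29), 9 MHC class I genes (-0.12 and 0.39), 6 nonclassical monocyte genes (0.21 and 0.55) or 5 Fc receptors (0.26 and 0.58). Without the cells of other lineages 2 lysosomal genes (medians 0.39 and 0.41) and 1 nonclassical monocyte gene (0.998 and 0.74) were at least 2-fold higher in both. Of the MHC class I genes and Fc receptors still none was. The 6 MHC class II genes had medians of opposite sign, -0.49 in WT and 0.70 in Tet2 KO, and none passed 2-fold in both. Without the cells of other lineages their medians were -1.19 and 0.02, and still none did. Lipid handling held 1 higher gene of 8, which was Apoe itself, with a median of 0.06 and 0.26.

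**Figure D3:**
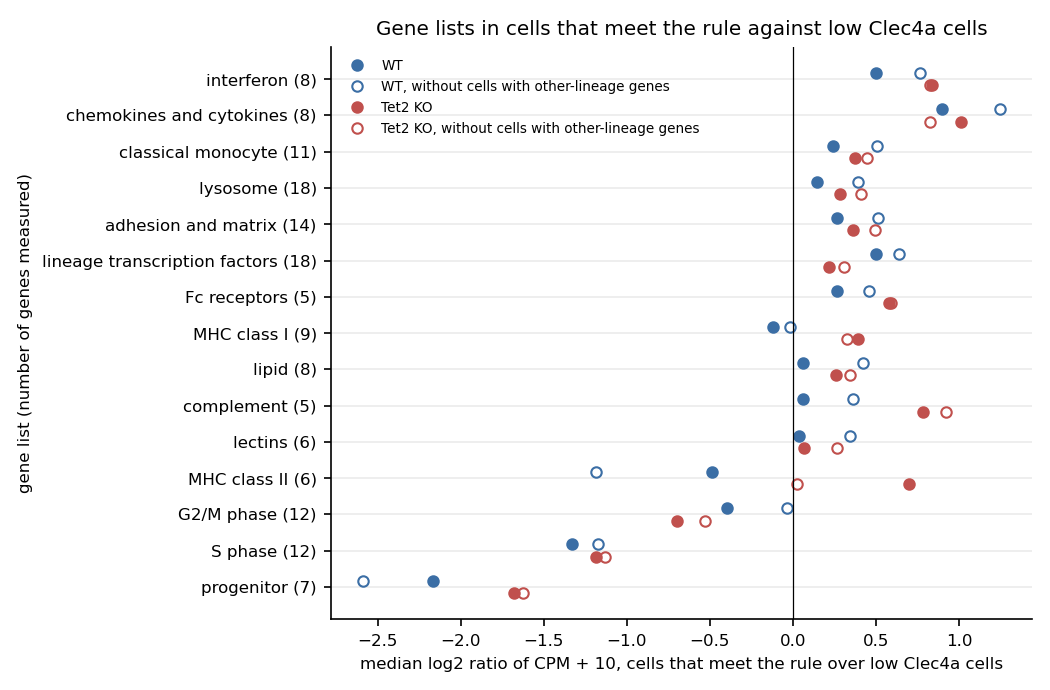
Median log2 ratio of CPM + 10 of Clec4a-high Fn1 monocytes over low Clec4a cells (x axis) for 15 gene lists (y axis, with the number of genes measured), in WT (blue) and Tet2 KO (red), with all cells (filled) and without the cells of other lineages (open). With all cells, of the 15 lists in the plot, chemokines and interferon-stimulated genes have the highest medians and S phase and progenitor genes the lowest, and the MHC class II list lies on either side of 0 by library.

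To see which genes followed which selection gene, all 139 WT and 337 Tet2 KO Fn1 cells were split by both. In Tet2 KO, Apoe stood at 1731 CPM in the 135 cells with both, 336 in 137 cells with Wfdc17 only and 41.0 in 61 cells with neither. In WT it stood at 928 in 27 cells, 256 in 39 cells and 38.9 in 65 cells. Cells with Clec4a and low Wfdc17 numbered 8 in WT and 4 in Tet2 KO, and their Apoe stood at 127 and 76.6 CPM. Apoe was thus highest in cells with both and, as a summed level, intermediate in cells with Wfdc17 alone. Lyz2 gave the same order in Tet2 KO, at 22411, 13591 and 7990 CPM, and Prtn3 the opposite one, at 372, 987 and 1746. In WT all 94 Apoe UMIs of the cells with Wfdc17 alone lay in the 13 with 1 Clec4a UMI. The 26 WT cells without a Clec4a UMI held 0.

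Levels were also taken by the Clec4a sum. In Tet2 KO Fn1 cells with at least 3 Wfdc17 UMIs, Apoe stood at 243 CPM in 77 cells with no Clec4a UMI, 465 in 60 cells with 1, 1019 in 37 with 2, 960 in 45 with 3 to 4 and 2731 in 53 with 5 or more. Prtn3 stood at 1142, 770, 391, 392 and 346 CPM over the same bins, Ly6c2 at 2944, 2973, 2756, 2088 and 1798, and Itgam at 36.8, 75.3, 146, 135 and 160. The bins are those of a gene of the rule and hold cells of unequal depth. In WT the bins held 26, 13, 11, 10 and 6 cells, and Apoe stood at 0, 847, 307, 1026 and 2289 CPM, without a steady order.

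Saa3 was detected in Tet2 KO members and not in WT members. It had no UMI in the 27 WT members, with exact upper limits of 15.3 CPM and 12.8% of cells with a UMI. In Tet2 KO members it had 359 UMIs, 275 CPM (247 to 305). The level in Tet2 KO was 22.1-fold a floor of 3 counts in WT, which is 12.4 CPM. Low Clec4a cells held 1.95 CPM in WT and 5.83 in Tet2 KO. In Tet2 KO members 35 of 135 cells had a UMI (25.9%, 18.8% to 34.2%), or 24.4% with each cell thinned to 5000 UMIs, at a median depth of 8178. The share was 8 of 203 in Tet2 KO low Clec4a cells (3.94%, 0.985% thinned) and 2.42% of all Tet2 KO cells with no Fn1, whose median depth was 10686 UMIs. Among these it was 4.35% of the 46 cells with T-cell receptor complex genes and 2.57% of cells with at least 20 Mpo UMIs. In plasma cells it was 0.613%. In WT the share was 1.89% of low Clec4a cells and 1.05% of all cells with no Fn1. It was 1.65% of WT cells with at least 20 Mpo UMIs, 7.14% of the 14 with T-cell receptor complex genes and 0.629% of plasma cells. The 3 cells with most Saa3 held 39.3% of its UMIs, and 1 cell held 90. Without the cells of other lineages 30 of 113 members (26.5%) had a UMI, and the level was 221 CPM (193 to 252), from 217 UMIs.

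The 35 Tet2 KO members with Saa3 were set beside the other 100. Apoe stood at 2194 CPM (2035 to 2363) in them and 1581 (1503 to 1661) in the others, Wfdc17 at 3030 and 1989, and Lyz2 at 27662 and 20711. Ly6c2 stood at 2197 and 2098, a difference within the counting intervals. H2-Ab1, an MHC class II gene, stood at 194 (149 to 249) in cells with Saa3 and 389 (351 to 430) in cells without. In the Tet2 KO bins above, Saa3 stood at 6.58 CPM with no Clec4a UMI, 9.19 with 1, 97.0 with 2, 135 with 3 to 4 and 484 with 5 or more. The step between 1 and 2 UMIs, the highest in proportion, lies at the threshold of the rule.

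**Figure D4:**
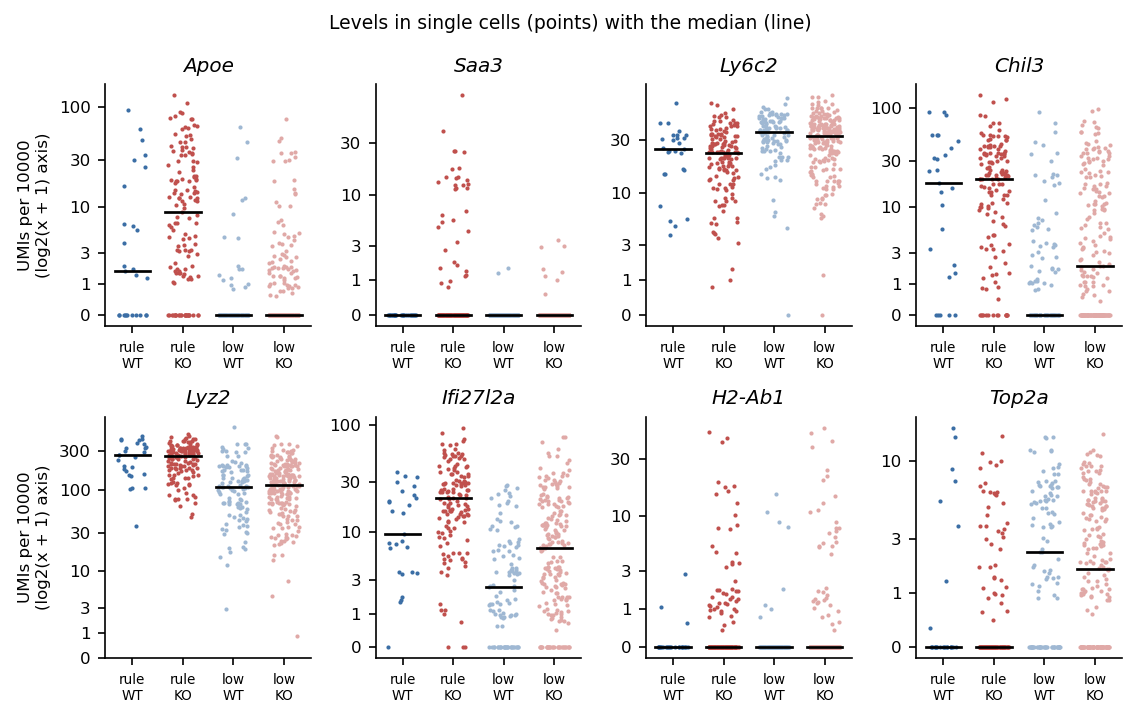
Levels of 8 genes in single cells (y axis, UMIs per 10000 on a log2(x + 1) axis), with the median as a line, in WT and Tet2 KO Clec4a-high Fn1 monocytes ("rule") and low Clec4a cells ("low"). Saa3 lies at 0 in all 27 WT members and reaches 79.6 in Tet2 KO members, and Top2a has a median of 0 in members and 2.41 and 1.75 in low Clec4a cells.

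Within members, 333 of 5837 genes (5.7%) were at least 2-fold higher in Tet2 KO and 55 (0.942%) at least 2-fold lower. In low Clec4a cells these counts were 32 (0.42%) and 9 (0.118%) of 7616. The WT members gave few UMIs, and of the 333 genes 277 had under 5 of them, 82 none. Of the 333, 22 were also past 2-fold in low Clec4a cells and 234 had the same sign there. Without the cells of other lineages 220 of the 333 and 37 of the 55 stayed past 2-fold. The median gene had a ratio of 0.14, or 0.04 without those cells.

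MHC class II genes, which present peptides to helper T cells, were higher in Tet2 KO members. H2-Ab1 stood at 24.8 CPM (9.12 to 54.1) in WT and 342 (311 to 375) in Tet2 KO, from 6 and 446 UMIs, a log2 ratio of 3.33. H2-Aa stood at 16.6 and 326 CPM (3.66), H2-Eb1 at 12.4 and 253 (3.55) and Cd74, the invariant chain, at 203 and 1188 (2.49). Of 7 genes measured, 5 were at least 2-fold higher, beside 5.7% of all genes, with a median of 2.49 (4 genes and 3.19 without the cells of other lineages). In low Clec4a cells 4 of 8 were, beside 0.42%, with a median of 1.09, so the direction was the same there. The genes were concentrated in some cells. At least 5 UMIs of H2-Aa, H2-Ab1 and H2-Eb1 together were found in 25 of 135 Tet2 KO members (18.5%, 12.4% to 26.1%) and 1 of 27 WT members (3.70%, 0.0937% to 19.0%), and the 3 cells with most held 42.6% of H2-Ab1 UMIs. Without the cells of other lineages they were found in 16 of 113 (14.2%) and 1 of 24 (4.17%). In low Clec4a cells the shares were 24 of 203 (11.8%, 7.72% to 17.1%) in Tet2 KO and 4 of 106 (3.77%, 1.04% to 9.38%) in WT. Dendritic cell markers in the same members were summed at 124 CPM in WT and 166 in Tet2 KO. Of 3 measured, 1 was at least 2-fold higher in Tet2 KO, with a median of 0.25, and without the cells of other lineages 2 were, with a median of 1.34. Their part in the MHC class II values was not tested. At least 1 H2-Ab1 UMI was found in 37.0% of the members in Tet2 KO and in 11.1% in WT. In cells with no Fn1 and at least 5 UMIs of T-cell receptor complex genes, a type that should lack it, the shares were 43.5% of 46 and 35.7% of 14 cells, at median depths of 8988 and 12846.5 UMIs, so a single UMI of it was at the level of background, and cells with at least 5 UMIs are the ones counted above. Over all cells with no Fn1 the shares were 43.3% in Tet2 KO and 28.3% in WT. With at least 20 Mpo UMIs they were 32.9% and 24.1%, so cells outside the members differed between the libraries too.

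Isg15, an interferon-induced ubiquitin-like protein, had no UMI in WT members (exact upper limit 15.3 CPM) and 129 in Tet2 KO members. Its level of 98.8 CPM in Tet2 KO was 7.95-fold a floor of 3 counts in WT. It had a UMI in 41.5% of Tet2 KO members and 17.2% of Tet2 KO low Clec4a cells (34.1% and 13.3% thinned to 5000 UMIs). In Tet2 KO cells with no Fn1 the share was 13.3% over all, 10.6% with at least 20 Mpo UMIs and 26.1% of the 46 T-cell receptor cells. In plasma cells it was 4.91%. In WT it had a UMI in 8.49% of low Clec4a cells. For WT cells with no Fn1 the share was 9.06% over all, 8.41% with at least 20 Mpo UMIs and 0% of the 14 T-cell receptor cells, and it was 8.18% in WT plasma cells. Of 13 interferon-stimulated genes measured, 3 were at least 2-fold higher, beside 5.7% of all genes, and all 13 had positive ratios, with a median of 0.78. Without the cells of other lineages 2 were at least 2-fold higher, with a median of 0.49. In low Clec4a cells 1 of 12 was higher, beside 0.42% of all genes, with a median of 0.63. Wfdc21, another WAP domain protein, stood at 24.8 and 277 CPM (3.04 in members and 1.79 in low Clec4a cells).

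Other large ratios rested on few cells. Ccl5, a chemokine of T and NK cells and of some monocytes, stood at 8.28 CPM in WT and 331 in Tet2 KO members, with 54.6% of its UMIs in 3 cells, and the ratio went from 4.22 to 1.51 without the cells of other lineages. Retnlg and Camp, neutrophil genes, had 66.1% and 85.8% of their Tet2 KO UMIs in 3 cells, and their ratios went from 3.77 and 3.003 to 1.10 and 0.14. Iglc1 had 99.7% of its Tet2 KO UMIs in 3 cells.

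Of 10 chemokines and cytokines measured in members, 3 were at least 2-fold lower in Tet2 KO, beside 0.942% of all genes, and 2 at least 2-fold higher, with a median of -0.29. The chemokine Ccl3 stood at 248 CPM (190 to 320) in WT and 28.3 (19.95 to 39.1) in Tet2 KO, a log2 ratio of -2.75, and was seen in 66.7% and 18.5% of members. Fos, an immediate early transcription factor, stood at 1752 and 748 CPM (-1.22), and the phosphatase Dusp1 at 298 and 116 (-1.29). Ccl2 stood at 133 and 49.8 CPM (-1.25), and BC035044 at 157 and 60.5 (-1.25). In low Clec4a cells the ratios of these genes were -1.83, -0.95, -0.92, -0.84 and -0.66, all in the same direction. Cd14, a receptor for lipopolysaccharide, stood at 124 and 23.7 CPM in members and 37.1 and 18.5 in low Clec4a cells. How long the preparations took before lysis was not analysed here, and its part was not tested.

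Genes that set members apart from low Clec4a cells did not all follow the genotype. Apoe stood 0.89 higher on the log2 scale in Tet2 KO members and 0.97 higher in low Clec4a cells, Ifi27l2a 0.97 and 0.996, and Ly6c2 at -0.02 and -0.12. Without the cells of other lineages the ratio in members was 0.54 for Apoe and 0.76 for Ifi27l2a. The 3 cells with most Apoe held 58.9% of its UMIs in WT members and 11.5% in Tet2 KO members. Cells with no Fn1 also differed in Apoe, which was detected in 19.9% of WT and 33.4% of Tet2 KO cells. Chil3 had a ratio of -0.02 in members and 1.19 in low Clec4a cells, and Ccl6 -0.67 and -0.01. Progenitor genes had a median of -0.15 over 6 genes in members, S phase genes 0.22 over 11 and G2/M genes -0.55 over 12, with no gene of the 3 lists past 2-fold. Without the cells of other lineages these medians were 1.01, 0.20 and -0.71, with 3 progenitor genes and 1 S phase gene at least 2-fold higher and 2 G2/M genes at least 2-fold lower.

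**Figure D5:**
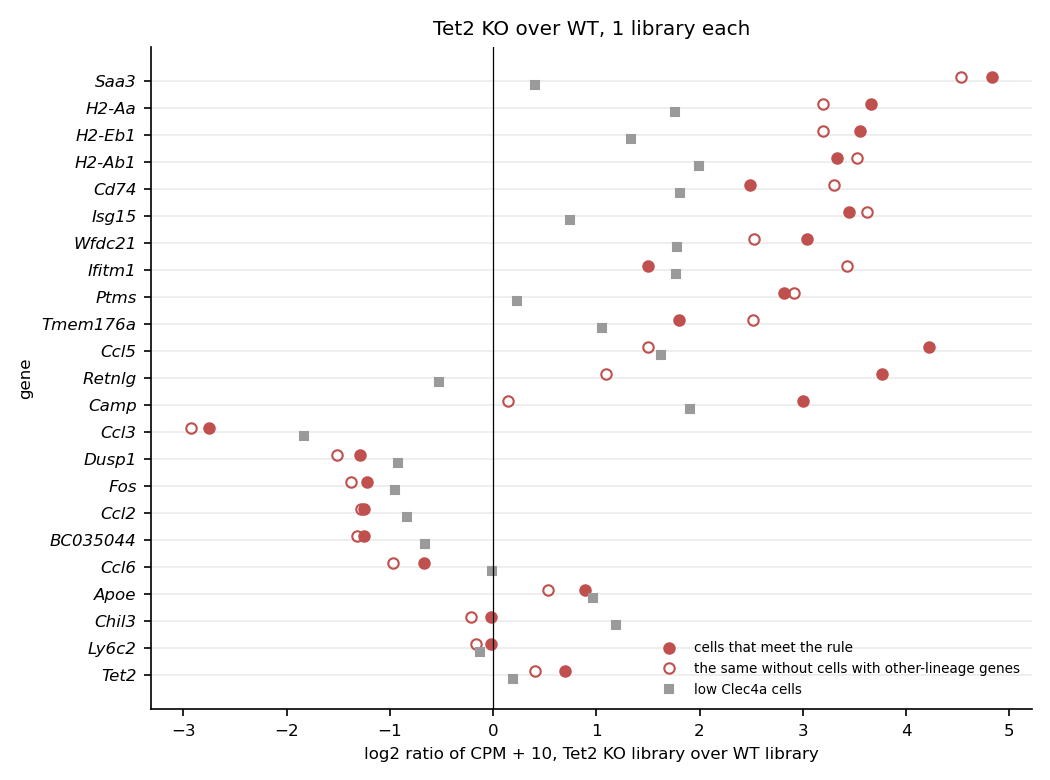
Log2 ratio of CPM + 10, Tet2 KO library over WT library (x axis), of 23 genes (y axis) in Clec4a-high Fn1 monocytes with all cells (filled circles) or without the cells of other lineages (open circles) and in low Clec4a cells (grey squares), 1 library per genotype. MHC class II genes lie to the right and Ccl3, Dusp1, Fos, Ccl2 and BC035044 to the left in both sets of cells, while Camp and Retnlg move towards 0 in the open circles.

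Tet2 itself had 4 UMIs in WT members (16.6 CPM, 4.51 to 42.4) and 43 in Tet2 KO members (32.9 CPM, 23.8 to 44.4), and 19.5 and 23.8 CPM in low Clec4a cells. Tags from the 3' end of the transcript lie outside a deleted internal exon, so these values do not check the labels.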

How the data were processed

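RNA of single cells of 4 libraries was counted by the authors with Cell Ranger 3.1.0 and filtered in Seurat, on build mm10 per the submitters' notes, and the deposited values are raw counts of UMIs for 18695 genes in 8969 cells. By the methods, cells had 200 or more genes, 5000 or more UMIs and less than 5% mitochondrial reads, but 44 cells of the WT and 73 of the Tet2 KO library of the Lin-/CD11b+ sort exceed the last limit and were kept. That sort held 22681380 UMIs in WT and 34024599 in Tet2 KO, and free RNA and doublets were not removed. The members and gene lists were chosen with earlier results of these data known. UMIs were summed per set of cells, as CPM, with exact Poisson intervals, exact binomial intervals for shares and exact conditional binomial intervals for ratios, at 95%. Genes with at least 20 UMIs over both sets were compared as ratios of CPM + 10, 2-fold being the limit, and a level of 0 was set against a floor of 3 counts per set. Named genes were the 15 highest and 10 lowest against low Clec4a cells with at least 100 UMIs in each library and 1.5-fold in both, the 10 highest and 10 lowest between genotypes with at least 50 UMIs in 1 library, Tet2, and from 26 lists the most abundant genes, those past 2-fold and defining markers. Genes of the rule were left out of lists, and not every gene that these rules name is reported here. The computation was tested on simulated data. Alternatives were TMM factors (edgeR 4.0.16, R 4.3.3), other offsets, filters and thresholds, thinning to 5000 UMIs with seed 1 and leaving out cells, with Python 3.11.15, numpy 2.4.6, scipy 1.17.1, pandas 2.3.3 and matplotlib 3.10.9.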

Additional observations from a re-analysis of the deposited data

Results flagged for a closer look

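With 1 library per genotype none of the differences below was tested. For 3 immunoglobulin genes the Tet2 KO over WT log2 ratio went in opposite directions in the sets of cells. Jchain stood at -1.74 in Clec4a-high Fn1 monocytes and 2.68 in low Clec4a cells, Igkc at -3.67 and 2.53, and Igha at -2.001 and 2.32. In WT members 99.2% or more of the UMIs of each lay in 3 cells, and without the cells of other lineages the ratios in members were 0.62, 0.04 and -0.02.

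For Ccl5 and Isg15 the ratio of Clec4a-high Fn1 monocytes over low Clec4a cells went in opposite directions in the libraries. Ccl5 stood at -1.40 in WT and 1.19 in Tet2 KO, from 2 UMIs in WT members, and Isg15 at -1.36 and 1.34, from none. Without the cells of other lineages the ratios were -0.31 and 1.47 for Ccl5 and -1.38 and 1.68 for Isg15.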

How the results depend on the processing

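The share of Clec4a-high Fn1 monocytes was higher in Tet2 KO than in WT under every setting tried, and its size followed the thresholds. It was 1.40% in WT and 4.40% in Tet2 KO, and 0.832% and 2.67% with cells thinned to 5000 UMIs, 2.08% and 6.36% with a Clec4a sum of at least 1, and 0.676% and 2.35% with at least 4. In Tet2 KO it was 5.25% with no S100 limit and 5.77% with at least 1 Fn1 UMI. Genes 2-fold higher than in low Clec4a cells numbered 46, and 71 with an offset of 1 CPM, 14 with at least 100 UMIs, 13 after thinning and 79 with only low Clec4a cells under 3 Wfdc17 UMIs. Lower genes numbered 69, and 139 with an offset of 1 CPM and 32 with at least 100 UMIs. Genes higher in Tet2 KO members numbered 333, and 758 with an offset of 1 CPM, 45 with at least 100 UMIs, 210 after thinning and 617 with a Clec4a sum of at least 4. Lower genes numbered 55, and 137 with an offset of 1 CPM, 121 with no filter, 11 with at least 100 UMIs, 91 as the mean over cells, 91 after thinning and 102 with a Clec4a sum of at least 4. These lower genes numbered 96 without the cells of other lineages and 121 without cells with 5% or more immunoglobulin UMIs, alternatives added after seeing the data. Stricter filters test fewer genes, and the cause of the other moves was not tested. TMM factors changed no count by over 1.5 times.

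Ratios of summed lists against low Clec4a cells reversed as follows. The neutrophil list became 0.89 in WT and 2.11 in Tet2 KO with the S100 limit on low Clec4a cells, 1.53 in Tet2 KO with low Clec4a cells under 3 Wfdc17 UMIs, and 1.56 and 1.02 without the cells of other lineages. The B and plasma cell list became -0.54 and -1.52 after thinning, -0.74 and -0.12 without the cells of other lineages and, in WT, -0.72 without immunoglobulin cells, and the T and NK cell list -0.057 in Tet2 KO without the cells of other lineages. The basophil and mast cell list, Tet2 KO over WT, became -1.10 with a Clec4a sum of at least 4. Camp became 0.16 and 2.98 with the S100 limit, 1.48 in Tet2 KO with the Wfdc17 limit, and 0.17 and 0.19 without the cells of other lineages. Ngp became 2.61 in Tet2 KO with the S100 limit and 1.02 with the Wfdc17 limit, and 0.037 and 0.19 without the cells of other lineages. Mpo became 0.26 in WT after thinning. Of 902 values of single genes under an alternative, 767 moved by less than the counting interval, and of 800 values of lists 524 did. No paired analysis was possible because each group has 1 library.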
